A study of Mus musculus with 13 samples.

Results

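The genes described here carry the symbols of the initiation and elongation factors of translation, and the measurement is R-loop signal over them in N2a cells. Besides the factors themselves these symbols take in regulators, namely the kinases of eIF2, the inhibitors of eIF4E and the kinase of eEF2, and the Argonaute genes under older symbols. Members were the protein_coding genes of the GENCODE vM1 annotation of the mouse genome (build mm9) whose symbol starts with Eif or Eef followed by a digit, without Eef2 and Eef1a1. This gave 65 gene records under 64 symbols, out of 22367 protein_coding genes, and Eef2k has 2 records, of which the small one lies inside the large one. A gene was scored over its window, the annotated bounds extended by 1 kb on either side. Its measure in a library was the number of window bases covered by that library's peaks, called covered bases below.

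N2a is an established mouse neuroblastoma line. Cells had been transfected with a scramble siRNA (siScramble, genotype given as WT), an siRNA against DDX1 (siDDX1, a putative RNA helicase) or an siRNA against EXOSC3 (siEXOSC3, a subunit of the RNA exosome), and the design asks which R-loops differ after either depletion. Every group shares a digest of its genomic DNA by 5 restriction enzymes (XbaI, SspI, HindIII, EcoRI and BsrGI) and a capture of RNA and DNA hybrids with the antibody S9.6, after which the captured DNA was sequenced (DRIP-seq). Each group had 3 untreated libraries and 1 library from DNA digested with RNase H, the enzyme that removes the RNA of such hybrids.

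An R-loop forms when an RNA pairs with its DNA template and leaves the other DNA strand unpaired, most often over the start or the end of transcribed genes. Translation factors are needed by every growing cell, so most of these genes are transcribed in most tissues. Initiation brings the initiator tRNA and the small ribosomal subunit to the start codon of a capped mRNA, and elongation factors then deliver the following tRNAs and move the ribosome along.

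The treatment in the sample title and the treatment in the peak names differed in 12 of 12 lists. Lists titled siScramble held peaks named siDDX1, those titled siDDX1 held peaks named siEXOSC3 and those titled siEXOSC3 held peaks named siScramble. Titles set the groups used here, so "labelled siDDX1" gives the title and no more. Were the peak names right, siDDX1 against siScramble would compare siEXOSC3 with siDDX1, siEXOSC3 against siScramble would compare siScramble with siDDX1, and siEXOSC3 against siDDX1 would compare siScramble with siEXOSC3. Tests across all 3 groups and tests of RNase H do not depend on this. The labels do not say whether replicates came from separate cultures, while the study's methods describe a separately seeded plate for each replicate of a condition. The p-values measure the spread between these libraries.

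The untreated lists held 23882 to 42571 peaks and the RNase H lists 3811 to 8034. Relative depth, recovered from the background that the peak caller used, ranged from 0.785 to 1.86 of the untreated mean in untreated libraries and from 1.62 to 2.30 in RNase H libraries. The shallowest called summits stood on 5 to 7 fragments in untreated libraries, so a gene without a peak may still carry signal below that level. Libraries within a group differed in breadth. The members' windows held 229, 374 and 403 kb of peaks in siScramble replicates 1, 2 and 3, then 375, 224 and 278 kb in siDDX1 and 249, 243 and 333 kb in siEXOSC3. siScramble replicate 1 stood below the other two of its group, and siDDX1 replicate 1, the deepest untreated library, above the other two of its own. Of 12 genes of the sympathetic and neuroblastoma lineage, 5 had a peak in 9 of 9 untreated libraries, Hand2, Gata2 and Chga among them, and 3 in none, with Dbh and Th, which encode enzymes of noradrenaline synthesis, among these, while the other 4 had one in 1 or 2. Of 11 genes of other lineages 9 had no untreated peak, and the glial genes Gfap and Mbp had one in 4 and 2 libraries.

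**Figure D1:**
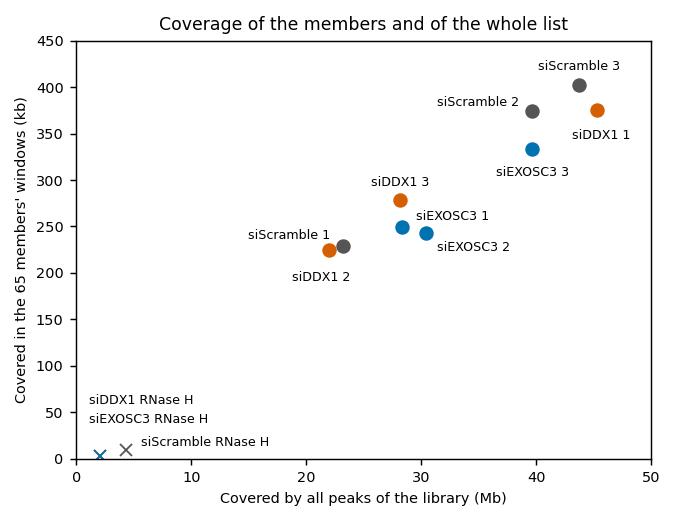
Covered length in the 65 members' windows (kb, vertical axis) against the length covered by the whole peak list (Mb, horizontal axis), 1 point per library, coloured by group title, with crosses for RNase H libraries. The members follow the breadth of the list they come from, from 224 kb in siDDX1 replicate 2 to 403 kb in siScramble replicate 3.

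Most translation factor genes carried an R-loop peak in every untreated library. A peak was called in 9 of 9 untreated libraries over 47 of the 65 members (72.3%), against 5859 of 22367 protein_coding genes (26.2%). Another 13 members had a peak in 1 to 8 libraries and 5 in none, where 23.7% and 50.1% of all genes did. Among genes with a peak in any of the 12 libraries, 75.8% of 62 members and 48.4% of 12116 genes were called in 9 of 9. The genes were not matched for transcription. Per library, 49 to 60 members were called, 75.4 to 92.3% of them, against 32.3 to 43.1% of all genes. The count of 47 was 47 to 50 when any 1 library was left out, and leaving a library out cannot lower it. In a narrower window of 2 kb around the annotated start the count was 28 (43.1%), against 2488 of all genes (11.1%). The share also differed by chromosome. On chromosomes 8 and 15, 8 of 8 members were called in 9 of 9, against 39.4% of all genes there. On the other chromosomes 39 of 57 were (68.4%), against 25.0%. The part of chromosome in these calls was not tested.

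**Figure D2:**
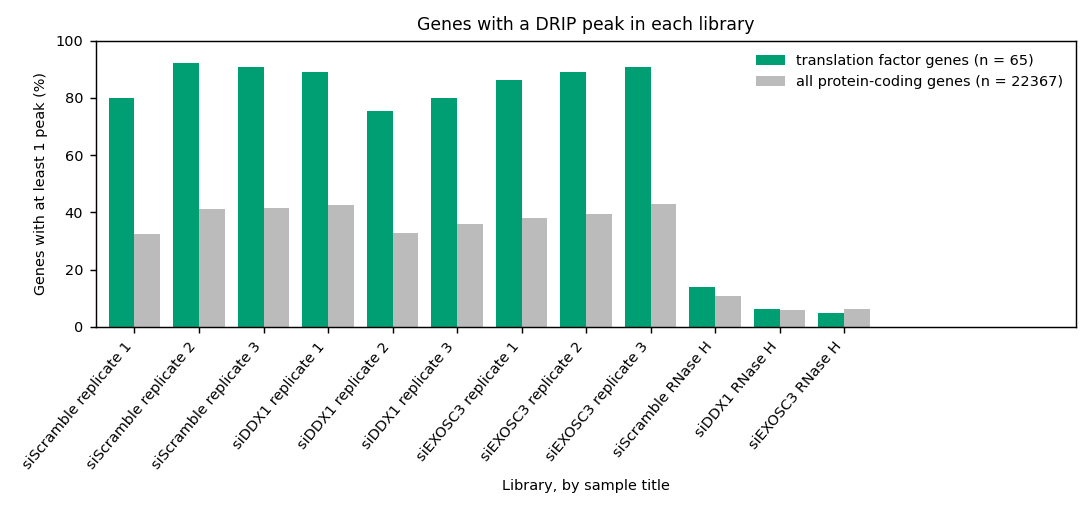
Share of genes with at least 1 peak in the window (%, vertical axis) in each of the 12 libraries, for the 65 translation factor genes and for all 22367 protein_coding genes. The members lie at 75.4 to 92.3% in the untreated libraries and at 4.62 to 13.8% after RNase H.

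The members were called more often than all genes of like length. Their median length was 18305 bases against 15427 for all genes. Of the members shorter than 5000 bases 5 of 8 were called in 9 of 9, against 13.1% of all genes of that length, and of those between 20000 and 40000 bases 13 of 16 were, against 32.2%. Among genes called in 9 of 9, the median share of the window under peaks was 26.7% in the 47 members and 18.3% in all 5859 genes. The median coefficient of variation of covered bases over the 9 libraries was 31.9% and 34.9%. These are descriptions of the list beside all genes, with no test, and 17 members have the start of another protein_coding gene inside their window.

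**Figure D3:**
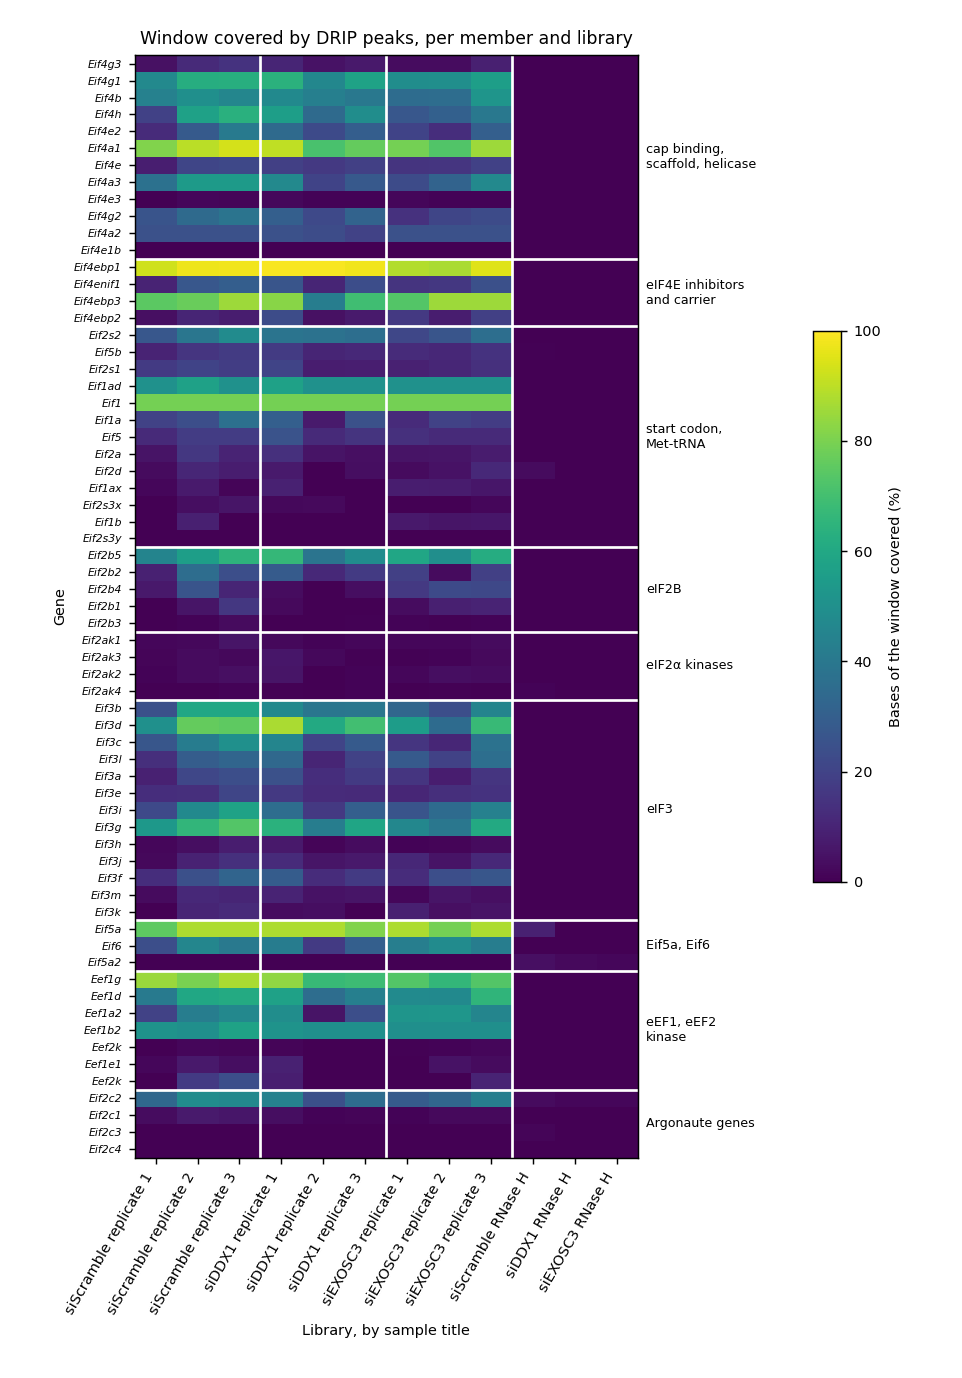
Share of each member's window covered by peaks (%, colour) in the 12 libraries (columns, by title), with genes in rows grouped by role and ordered by mean covered bases. Eif4ebp1, Eif1, Eif4a1, Eif5a and Eef1g are bright in all 9 untreated columns, Eif4e1b, Eif2c4 and Eif2s3y are dark throughout, and the 3 RNase H columns are dark for nearly all genes.

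The 6 members with the strongest peaks were Eif4b, Eif3d, Eef1g, Eif1, Eif4a1 and Eif5b. Their strongest peak ranked on average at the 99.4 to 99.7 percentile of fold enrichment within its own list. Eif4b, which assists the helicase eIF4A in unwinding mRNA leaders, led the list, and both it and Eif3d are on chromosome 15. Fold enrichment at Eif4b was 42.3, 45.9 and 56.7 in siScramble, 50.0, 19.2 and 23.5 in siDDX1 and 43.4, 45.7 and 50.4 in siEXOSC3. Replicates 2 and 3 of siDDX1 were the lowest of the 9, and siDDX1 replicate 1 lay among the other groups. That replicate is the deepest untreated library, and fold enrichment as deposited also depends on depth, whose part here was not tested. These summits stood on 47 to 141 fragments, the lowest with an exact Poisson 95% interval of 34.5 to 62.5, which covers counting error only.

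The place of the strongest peak differed among these 6. At Eif4b it covered the gene start, with the summit 52 to 101 bases upstream of it in all 9 libraries. Eif1, which keeps the scanning ribosome from starting at a wrong codon, and Eif4a1, the helicase itself, also had it over the start. In Eef1g, a subunit of the exchange factor for eEF1A, the peak reached the gene end and its summit lay 7317 or 7318 bases into a gene of 11439 bases in all 9 libraries. In Eif5b, the GTPase that joins the large ribosomal subunit, the summit lay 49196 to 51163 bases past the start of a gene of 57570 bases. For Eif3d, a subunit of eIF3 that can bind the cap, it lay 13348 to 13360 bases past the start of a gene of 11827 bases in all libraries but siScramble replicate 2 (10722 bases), so the peak entered the window from beyond the gene end.

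The 120 bases upstream of the annotated start follow for these 6 members and for Eif4ebp1 and Eif1b. In Eif4ebp1 and Eif1b siEXOSC3 and siDDX1 did not overlap, while siScramble overlapped both. The 4 autosomal members with no untreated peak were added as a contrast after their values were seen. Each stretch is read 5′ to 3′ on the strand of its gene in mm9 and holds no annotated exon, and CG dinucleotides are in capitals. The windows run in order at chr15:101904084-101904203, chr15:77801255-77801374, chr19:9041411-9041530, chr11:100181079-100181198, chr11:69485926-69486045, chr1:38054735-38054854, chr8:28370679-28370798, chr9:120401604-120401723, chr3:28680113-28680232, chr4:126106801-126106920, chr4:126210717-126210836 and chr13:54885239-54885358. Eif3d, Eif4a1, Eif2c3 and Eif2c4 are on the minus strand and the others on the plus strand.
Eif4b: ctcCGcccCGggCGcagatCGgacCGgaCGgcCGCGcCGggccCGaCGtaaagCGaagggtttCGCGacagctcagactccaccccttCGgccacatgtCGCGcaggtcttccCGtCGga
Eif3d: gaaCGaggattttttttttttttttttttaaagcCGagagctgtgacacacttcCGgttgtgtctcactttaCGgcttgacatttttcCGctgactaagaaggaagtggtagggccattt
Eef1g: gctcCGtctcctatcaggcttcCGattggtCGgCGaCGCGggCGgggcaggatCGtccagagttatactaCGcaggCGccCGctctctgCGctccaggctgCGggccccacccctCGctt
Eif1: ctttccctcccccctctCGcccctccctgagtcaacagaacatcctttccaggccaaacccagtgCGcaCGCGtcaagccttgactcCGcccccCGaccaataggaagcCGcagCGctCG
Eif4a1: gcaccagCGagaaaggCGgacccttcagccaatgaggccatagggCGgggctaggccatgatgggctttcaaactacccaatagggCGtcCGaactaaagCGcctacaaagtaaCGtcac
Eif5b: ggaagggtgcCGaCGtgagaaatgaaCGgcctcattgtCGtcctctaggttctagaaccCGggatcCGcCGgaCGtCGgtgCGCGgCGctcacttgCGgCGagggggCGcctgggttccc
Eif4ebp1: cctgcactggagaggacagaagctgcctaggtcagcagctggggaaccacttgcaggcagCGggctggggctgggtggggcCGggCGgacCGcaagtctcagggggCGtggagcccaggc
Eif1b: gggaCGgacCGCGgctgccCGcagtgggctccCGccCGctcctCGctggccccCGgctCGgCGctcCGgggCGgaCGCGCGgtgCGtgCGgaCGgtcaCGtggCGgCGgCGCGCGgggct
Eif5a2: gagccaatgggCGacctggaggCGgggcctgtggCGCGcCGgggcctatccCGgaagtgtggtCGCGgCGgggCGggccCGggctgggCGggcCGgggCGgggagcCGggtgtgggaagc
Eif2c3: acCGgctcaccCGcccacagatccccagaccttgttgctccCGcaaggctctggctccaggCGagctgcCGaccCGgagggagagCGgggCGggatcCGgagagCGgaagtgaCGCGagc
Eif2c4: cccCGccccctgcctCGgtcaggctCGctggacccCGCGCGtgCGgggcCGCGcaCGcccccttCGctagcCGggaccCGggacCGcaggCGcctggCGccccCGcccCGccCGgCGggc
Eif4e1b: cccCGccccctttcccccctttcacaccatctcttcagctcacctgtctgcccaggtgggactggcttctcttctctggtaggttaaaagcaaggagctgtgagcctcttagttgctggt

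These stretches held 19 CG dinucleotides in Eif4b and 5 in Eif3d, both with a peak somewhere in the window in 9 of 9 libraries. A peak covered the start of Eif4b in 9 libraries and that of Eif3d in 5. The stretches held 20 in Eif2c4, which had no peak in any library, and 24 in Eif1b, which was called in 4, in 0 of them within 1 kb of the start. A CG-rich stretch before the start was thus present with a peak over the start, in Eif4b, and without any peak, in Eif2c4. The medians that follow go by calls anywhere in the window, not at the stretch itself. Over the 300 bases upstream, the median number of CG dinucleotides was 20 in the 47 members called in 9 of 9, 20 in the 13 called in 1 to 8 and 29 in the 5 called in none. Among all genes the medians were 18 in those called in 9 of 9 and 4 in those called in none.

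Among the cap-binding, scaffold and helicase genes, 11 of 12 had a peak in 9 of 9 libraries and the last, Eif4e1b, a relative of the cap-binding protein eIF4E, had none in any library. Eif4g3, a scaffold of the cap complex, had the most covered bases, with 9536, 25516 and 31987 in siScramble, 22232, 10807 and 14986 in siDDX1 and 6949, 7152 and 19477 in siEXOSC3. The groups overlapped, and the range within siScramble exceeded the distance between any group means. Its mean of 16516 ± 8836 bases (SD, n = 9) was 7.59% of a window of 217487 bases. Eif4a1 had 6156 ± 604 bases, or 82.2% of its window. Eif4e, which binds the cap, had 5765 ± 1368 bases, and siScramble replicate 1 was the lowest of its 9 libraries with 2746.

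The inhibitors and the carrier of eIF4E were called in 9 of 9 libraries in 4 of 4 cases. Eif4ebp1, which holds eIF4E away from the scaffold until mTOR phosphorylates it, was covered over 95.0% of its window. It had 16104, 16899 and 16928 covered bases in siScramble, 17177, 17177 and 16928 in siDDX1 and 15327, 15127 and 16506 in siEXOSC3. The 3 libraries labelled siEXOSC3 included the lowest 2 of the 9, and all 3 lay below every siDDX1 library. The highest value, 17177, left little of the window of 17330 bases uncovered. Fold enrichment of the strongest peak was 25.6, 38.4 and 48.6 in siScramble, 20.9, 21.4 and 26.5 in siDDX1 and 25.7, 26.5 and 35.1 in siEXOSC3, so the order of the groups by covered bases was not their order by fold enrichment. In 7 libraries the strongest summit lay 16126 to 17433 bases past the start of this gene of 15330 bases, so the strongest signal stood beyond the gene end. The relatives Eif4ebp2 and Eif4ebp3 had 2499 ± 1505 and 2896 ± 527 bases (SD, n = 9), and Eif4enif1, the carrier of eIF4E into the nucleus, had 9002 ± 3300.

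The factors of start codon selection and initiator tRNA delivery were called in 9 of 9 libraries in 8 of 13 cases. Eif1 was the steadiest, with 3334 bases in 8 libraries and 3329 in siDDX1 replicate 2. Eif2s2, the beta subunit of eIF2, which carries the initiator tRNA, had the most covered bases, with 6354, 9194 and 11383 in siScramble, 9048, 8835 and 8537 in siDDX1 and 5028, 6232 and 8502 in siEXOSC3. Every siDDX1 library lay above every siEXOSC3 library, by as little as 35 bases, and siScramble overlapped both. Both genes of the gamma subunit were low. Eif2s3x on chromosome X was called in 5 libraries, with at most 1511 bases, and Eif2s3y on chromosome Y in none.

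Of the 5 subunits of eIF2B, the exchange factor that recharges eIF2 with GTP, 2 were called in 9 of 9 libraries and 3 in 6 to 8. Eif2b5, the catalytic subunit, had 7154 ± 1267 bases (SD, n = 9) and the groups overlapped. Eif2b4 had 547, 2045 and 814 bases in siScramble, 270, 0 and 292 in siDDX1 and 1308, 1763 and 1713 in siEXOSC3. The 3 siDDX1 libraries were the lowest of the 9, and siScramble and siEXOSC3 overlapped. The strongest peaks lay at the start, which is within 1 kb of the start of Snx17, and stood on 7 to 16 fragments at the summit. Eif2b1 had 0, 600 and 1784 bases in siScramble, 294, 0 and 0 in siDDX1 and 350, 975 and 1067 in siEXOSC3. Eif2b3 had 0, 624 and 2159, then 0, 0 and 334, then 704, 465 and 555. In both genes each siEXOSC3 library exceeded each siDDX1 library, and siScramble overlapped both groups.

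The kinases that phosphorylate the alpha subunit of eIF2 under stress were called in 9 of 9 libraries in 2 of 4 cases. Eif2ak1, the kinase that senses haem, had 2049 ± 1146 bases (SD, n = 9), and siScramble replicate 3 alone reached 4931. Eif2ak4, the kinase that senses uncharged tRNA, was called in 5 libraries, with at most 912 bases of a window of 88618. Of the eIF3 subunits, which bind the small ribosomal subunit, 12 of 13 were called in 9 of 9. Eif3b had 10745 ± 3423 bases, the most of this complex. Eif3k was called in 7 libraries and had 0, 1314 and 1486 bases in siScramble, 439, 442 and 0 in siDDX1 and 1109, 528 and 643 in siEXOSC3. Each siEXOSC3 library exceeded each siDDX1 library, the closest by 86 bases, and the start of Map4k1 lies within 1 kb of its own.

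Eif5a, which helps the ribosome through difficult stretches of protein, had 6137 ± 361 bases, or 84.7% of its window, while its paralog Eif5a2 had no untreated peak. Eif6, which keeps the large ribosomal subunit free until it is needed, had 2167, 4157 and 3670 bases in siScramble, 3821, 1553 and 2757 in siDDX1 and 3891, 4395 and 3840 in siEXOSC3. All 3 siEXOSC3 libraries lay above all 3 siDDX1 libraries, though only 19 bases parted the nearest pair. Of the 7 gene records of eEF1 and of the eEF2 kinase, 4 were called in 9 of 9. Eef1g had 11398, 10722 and 11724 bases in siScramble, 11204, 9035 and 9218 in siDDX1 and 9843, 8919 and 9823 in siEXOSC3. The smaller record of Eef2k, the kinase that stops elongation, was called in 4 libraries.

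Argonaute proteins carry small RNAs, and the annotation lists their genes under the older symbols Eif2c1 to Eif2c4. Eif2c2 had the longest covered length of all members, with 28557, 41558 and 39917 bases in siScramble, 37512, 20777 and 30037 in siDDX1 and 24345, 28269 and 36446 in siEXOSC3. The groups overlapped. Eif2c1 had 1146, 2608 and 2192, then 1349, 286 and 485, then 391, 947 and 907. The siEXOSC3 libraries all lay below the siScramble libraries. Eif2c3 and Eif2c4, which with Eif2c1 are on chromosome 4, had no untreated peak.

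In the test across the 3 groups no member passed after adjustment. An exact permutation test, which set the observed F value beside those of all 280 divisions of the 9 libraries into 3 groups, gave an unadjusted p of at most 0.05 for 2 of the 62 members with any peak, Eif4ebp1 (p = 0.0429) and Eif2b4 (p = 0.0464). Of all 12116 genes tested, 2.85% did so. After Benjamini-Hochberg adjustment over all genes, 0 members and 0 genes passed, and the smallest p that the design allows is 0.00357. A gene at that p passes the adjustment only where enough of the tested genes share it. The 0 therefore does not show that the groups were alike. With the percentile of the strongest peak as the measure, the permutation p of Eif4ebp1 was 0.214. Over 19 alternative settings it ranged from 0.00714 to 1 for Eif4ebp1 and from 0.00357 to 0.321 for Eif2b4. The count of 2 was 11 (with 6.28% of all genes) when siScramble replicate 1 was left out and 6 (8.28%) when siDDX1 replicate 1 was, and it was 1 without siDDX1 replicate 2 and 0 without siScramble replicate 3, siDDX1 replicate 3, siEXOSC3 replicate 1 or siEXOSC3 replicate 2.

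**Figure D4:**
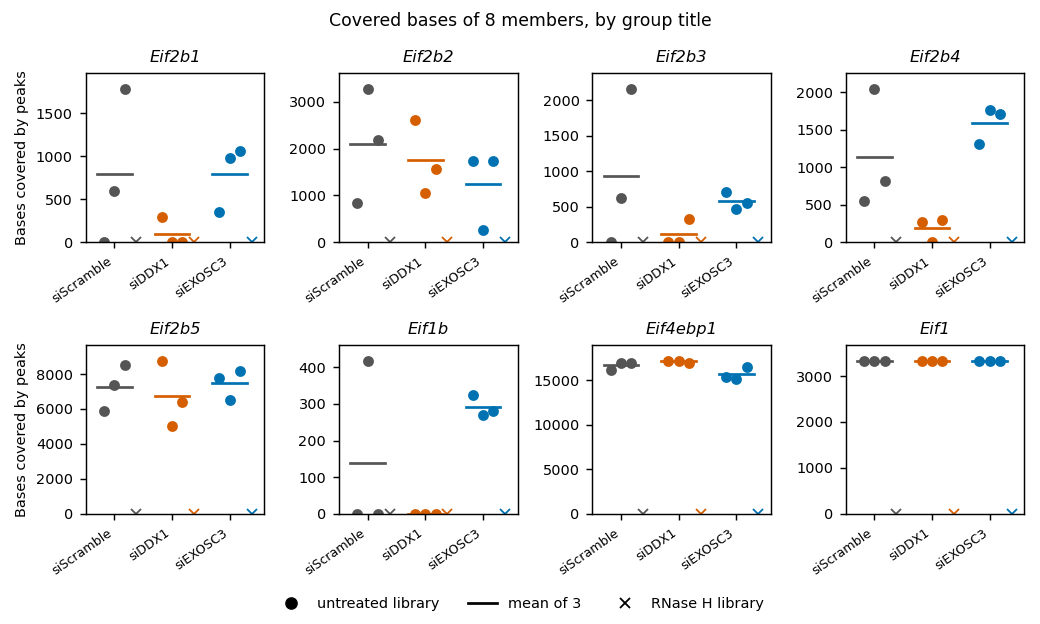
Covered bases (vertical axis, starting at 0) of the 5 eIF2B genes, Eif1b, Eif4ebp1 and Eif1 in each untreated library (dots, replicates 1 to 3 from left to right), with the group mean (bar, n = 3) and the RNase H library (cross), by group title. Eif2b4 lies at 0 to 292 bases in siDDX1 and at 1308 to 1763 in siEXOSC3, Eif1 is level at 3329 to 3334, and the RNase H value is 0 in all 8 genes.

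Pairs of groups were compared by asking whether all 3 libraries of one lay beyond all 3 of the other, for which an exact permutation test cannot give a two-sided p below 0.1. None of the members was higher in siDDX1 than in siScramble, where 0.751% of all genes were, and 1, Eif2b4, was lower, where 1.72% were. In siEXOSC3 against siScramble 0 were higher (5.90% of all genes) and 4 were lower (3.27%), namely Eif2s1, Eef1g, Eif2c1 and Eif4g2. In siEXOSC3 against siDDX1 6 were higher (4.66%), namely Eif6, Eif2b1, Eif2b3, Eif2b4, Eif3k and Eif1b, and 2 were lower (2.18%), Eif2s2 and Eif4ebp1. With 62 members, each of these counts is a few genes.

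Each pair shares its groups with the other pairs, so the lists are not independent. Eif2s1, the alpha subunit of eIF2, had 4670, 5478 and 4915 bases in siScramble, 5621, 2213 and 2289 in siDDX1 and 2481, 2880 and 3769 in siEXOSC3. Eif4g2, a scaffold that lacks the site for eIF4E, had 4441, 5869 and 6539, then 5175, 3765 and 5427, then 2407, 3546 and 3864. In both, siEXOSC3 lay below siScramble and overlapped siDDX1.

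These counts depended on single libraries. Without siScramble replicate 1, the narrowest library of its group, 22 members (17.7% of all genes) lay lower in siDDX1 than in siScramble and 30 (23.3%) lower in siEXOSC3. Without siDDX1 replicate 1, the deepest, 15 (17.2%) lay lower in siDDX1 than in siScramble and 17 (27.2%) higher in siEXOSC3 than in siDDX1. Without siEXOSC3 replicate 3, 15 (9.46%) lay lower in siEXOSC3 than in siScramble and 11 (8.87%) lower than in siDDX1. Without siDDX1 replicate 2 this last count was also 11 (8.30%). Without siScramble replicate 2 the count lower in siDDX1 than in siScramble was 3 (2.36%) and that higher in siEXOSC3 than in siScramble was 5 (9.07%). With siScramble replicate 3, siEXOSC3 replicate 2 or siEXOSC3 replicate 3 left out, 1 (11.3%), 1 (9.42%) and 2 (7.29%) members were higher in siEXOSC3 than in siScramble. Leaving out siScramble replicate 3 or siDDX1 replicate 3 gave 1 higher in siDDX1 than in siScramble (2.48% and 1.85%). The part of library breadth in these differences was not tested. Over the 47 members called in 9 of 9, the median log2 ratio of mean covered bases was -0.19 for siDDX1 over siScramble, -0.28 for siEXOSC3 over siScramble and -0.07 for siEXOSC3 over siDDX1, beside -0.12, -0.06 and 0.05 over all 5859 genes called in 9 of 9.

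Eif1b, a close relative of Eif1, was the 1 member called in 3 of 3 libraries of a group and in 0 of 3 of another, as 0.685% of all genes were for siEXOSC3 and not siDDX1. It had 0, 418 and 0 bases in siScramble, 0, 0 and 0 in siDDX1 and 323, 271 and 280 in siEXOSC3. The 3 siEXOSC3 peaks did not share a place. They lay at chr9:120403057-120403379 in replicate 1, at chr9:120404552-120404822 in replicate 2 and at chr9:120403510-120403789 in replicate 3. They stood on 7, 7 and 11 fragments at the summit, with exact Poisson 95% intervals of 2.81 to 14.4 for 7 and 5.49 to 19.7 for 11, and the shallowest calls of these libraries stood on 5.

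When untreated peaks were merged across libraries, 411 regions fell in the members' windows, and 85 of them (20.7%) were called in 9 of 9 libraries, against 10.7% of all 69497 regions. A further 162 (39.4%) were called in 1 library, against 45.3%. Of 55 regions at gene starts 30 were called in 9 of 9, as were 20 of 48 at gene ends and 35 of 308 inside genes. By the annotation, 46 of 160 regions that touched an exon away from the start were called in 9 of 9 and 9 of 194 that lay in introns. A region that touches any exon counts as exonic, and the regions called in 9 of 9 were wide, with a median of 3462 bases against 672 for all member regions, so the places are not compared further.

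**Figure D5:**
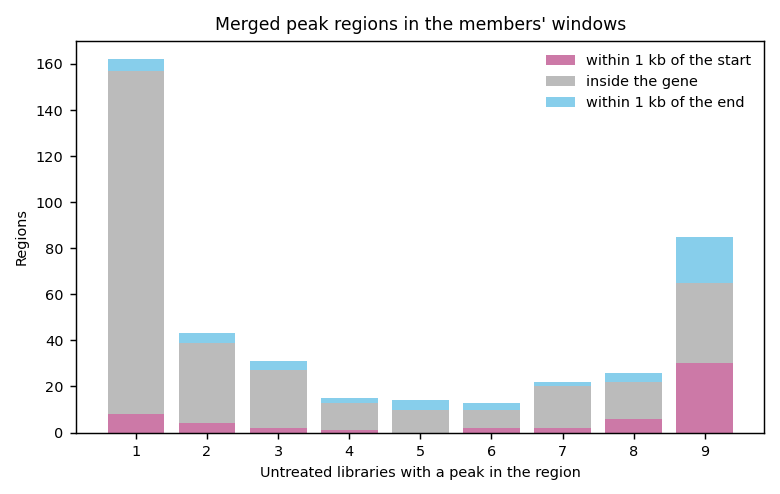
Number of merged peak regions in the members' windows (vertical axis) by the number of untreated libraries with a peak there (horizontal axis, 1 to 9), coloured by place in the gene. Of the 162 regions called in 1 library most lie inside genes, and of the 85 called in 9 of 9, 30 lie at starts and 20 at ends.

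Few regions were called in all libraries of a group and none of another. In Eif6, the region chr2:155649364-155650188, which overlaps an exon, was called in all 3 siScramble libraries, in 0 of siDDX1 and in 1 of siEXOSC3. It was the 1 member region called in siScramble and not in siDDX1, as 0.403% of all regions were. In Eif3k, the region chr7:29757763-29759297 was called in 2 siScramble libraries, in 0 of siDDX1 and in all 3 of siEXOSC3, the 1 member region called in siEXOSC3 and not in siDDX1, as 0.506% of all regions were. The 4 other patterns held 0 of the 411 member regions, beside 0.200% of all regions for siDDX1 and not siScramble, 0.544% for siEXOSC3 and not siScramble, 0.512% for siScramble and not siEXOSC3 and 0.393% for siDDX1 and not siEXOSC3.

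Few peaks over these genes were called after digestion with RNase H, 6 to 16 per library against 210 to 308 without it. With RNase H, 9 members (13.8%) were called in the library labelled siScramble, 4 (6.15%) in the one labelled siDDX1 and 3 (4.62%) in the one labelled siEXOSC3, beside 10.8, 5.84 and 6.09% of all genes. In these libraries 9.39, 2.81 and 2.89 kb of the members' windows were covered. Their relative depth was 1.62 to 2.30, against 0.785 to 1.86 without digestion. In an exact permutation test over 64 assignments within groups, adjusted over all 12116 genes, 42 of 62 members fell (adjusted p = 0.0388 each, from the smallest p the design allows, 0.0156), as did 38.2% of all genes. Eif5a2 rose, as did 2.10% of all genes. Eif5a2 had no untreated peak and was tested only because of its RNase H peaks. A gene with peaks in all 3 RNase H libraries and nowhere else always gets the smallest p, so its rise repeats that selection. The 12116 genes tested include 960 with peaks in RNase H libraries only. The 5 members that were called in 9 of 9 untreated libraries and missed the threshold were Eif2a, Eif4ebp2, Eif3h, Eif4e3 and Eif2ak3. The 42 that fell were all the other members called in 9 of 9. A fall at the smallest p needs more covered bases in every untreated library than in its group's RNase H library. Only genes called in 9 of 9 could therefore fall here, 75.8% of tested members and 48.4% of all genes tested. The shares that fell are not separate from these shares.

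The adjusted count depended on which library was left out. With 1 untreated library left out the smallest possible p is 0.0208 over 48 assignments, and 0 members passed after adjustment without siScramble replicate 2, siScramble replicate 3, siDDX1 replicate 3 or any 1 of the siEXOSC3 libraries, nor did any of all genes, while 44 or 45 passed without siScramble replicate 1, siDDX1 replicate 1 or siDDX1 replicate 2. The unadjusted count of 46 stayed between 42 and 49. In the 2 kb window around the start the same test gave an unadjusted p of at most 0.05 for 34 members (38.3% of all genes tested there). After adjustment 0 members and 0 of all genes passed. Genes at the smallest possible p pass the adjustment only where enough of the tested genes share it. The 0 therefore does not show that the fall was absent at starts.

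A peak was called in at least 1 RNase H library over 9 of the 65 members (13.8%), against 13.5% of all genes. Eif2c2 had 2573 covered bases in the digested library labelled siScramble, 1640 in that of siDDX1 and 1529 in that of siEXOSC3, against 20777 to 41558 without digestion. Eif4e3, a cap-binding relative of eIF4E in a window of 411314 bases, had 1547, 313 and 1030 against 852 to 8557. Eif4g3 had 483, 359 and 0 bases. The remaining bases of Eif2c2 and Eif4g3 lay far below every untreated value, and those of Eif4e3 overlapped them.

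Eif5a2 had 0 bases in all 9 untreated libraries and 830, 497 and 328 in the RNase H libraries. Its peaks fell within chr3:28689955-28690784 and stood on 20, 12 and 11 fragments, with fold enrichment of 8.09, 6.00 and 5.65. The shallowest calls of the RNase H libraries stood on 8 to 9 fragments, and their median summit on 12 to 14. In the RNase H library labelled siScramble, Eif2c3 had 1178 bases against 0 without digestion, Eif2ak4 759, Eif2d, which can deliver tRNA without eIF2, 1076, Eif5a 658 and Eif5b 290. The other RNase H libraries had 0 bases at these 5 genes. That library had the greatest relative depth, 2.30, and the part of depth in these peaks was not tested.

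Peak borders followed the restriction digest. In the untreated libraries, 60.2% ± 4.27 (SD, n = 9) of the members' peaks had an edge exactly on a cut of 1 of the 5 enzymes, against 56.0% ± 3.81 of all peaks. Some peaks had identical edges in nearly all libraries. The peak over the start of Eif4b, chr15:101903991-101905749, ran from an XbaI cut to an SspI cut in 9 of 9 libraries. A peak of Eif4e, 2746 bases wide, which begins past the gene start but within 1 kb of it, also ran from XbaI to SspI in 9 of 9. Those over the starts of Eif3e, Eif4h and Eif5 had the same edges in 8 of 9. The peak over Eif4h spanned a single restriction fragment of 2115 bases and that over Eif5 one of 2636, so the width of these start peaks was that of the fragment.

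The edges of 3 such peaks follow, as 26 bases of the plus strand of mm9, 5′ to 3′, with the recognition site in capitals. The sites are TCTAGA for XbaI, AATATT for SspI and AAGCTT for HindIII. The stretches run in order at chr15:101903980-101904005, chr15:101905737-101905762, chr15:43112832-43112857, chr15:43115557-43115582, chr5:135114114-135114139 and chr5:135116225-135116250.
Eif4b left edge: gcacacccatTCTAGAttccaagtcc
Eif4b right edge: catcttttctAATATTacaaggaaat
Eif3e left edge: aaaacacaaaAATATTaagttcaggc
Eif3e right edge: ccagtctctcTCTAGAaaaccctaac
Eif4h left edge: aaactcctatAAGCTTaaaaaaaaaa
Eif4h right edge: gtttgttaccAAGCTTgacctgagtt

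At each edge the peak began or ended within the site, at the base where the enzyme's cut leaves the fragment. At Eif4b the 2 edges were fixed while fold enrichment varied from 19.2 to 56.7, so the width of that peak did not follow its fold enrichment. At Eif1 fold enrichment of the strongest peak varied from 21.8 to 51.5 while covered bases stayed at 3329 to 3334.

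Of 30 related translation genes outside the symbol rule, 24 had a peak in 9 of 9 untreated libraries, 5 in 1 to 8 and 1, the release factor gene Gspt2, in none. A peak in 9 of 9 was found over 47 of the 65 members (72.3%) and 26.2% of all genes, so such calls were not particular to the members. Related genes with a peak in 9 of 9 included Atf4, the transcription factor induced when eIF2 is phosphorylated, with 4240 bases in each of the 9 libraries. They also included Eef1a1, with 3831 ± 708 bases (SD, n = 9), Eef2 with 7454 ± 283, the release factor gene Etf1 with 7701 ± 2403, and the mitochondrial elongation factor genes Gfm1 and Gfm2 with 1861 ± 1303 and 7554 ± 2333. The exact permutation test across the 3 groups gave an unadjusted p of at most 0.05 for 2 of 29, Ppp1r15b (p = 0.0214), which directs the phosphatase of eIF2, and the mitochondrial initiation factor gene Mtif2 (p = 0.05), beside the 2.85% of all genes. With RNase H 18 of the 29 fell and 0 rose after adjustment, beside 38.2% and 2.10% of all genes.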

How the data were processed

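R-loops were mapped by DRIP-seq in N2a cells, and 12 peak lists were analysed. The 1 input sample was not analysed here. According to the study's methods and the submitters' processing notes, reads were aligned to mm9 with Bowtie2 2.4.4, sorted with SAMtools, and peaks were called in each library separately with MACS2 2.2.6 against the input. Every entry of the deposited lists gives the fold enrichment, a ratio on the linear scale to the caller's local background, together with the authors' p-value and q-value as −log10. In this ratio 1 is added to the fragments and to the background. The lowest background was 0.544 to 1.29 fragments in untreated libraries, so the fold enrichment also depends on depth. All lists hold peaks at a −log10 q just above 2 or higher, so calls below that are not seen.

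Groups were taken from the sample titles. Gene bounds were those of GENCODE vM1, and a gene was tested when at least 1 of the 12 libraries had a peak in its window (12116 genes, 62 members). The percentile of a peak is its rank by fold enrichment within its own list. The number of fragments at a summit was solved from the fold enrichment and the −log10 p that the authors deposited. It came out whole, within 0.01 in −log10 p, for 99.5 to 99.97% of the peaks of a list, and the background it implies served as relative depth. Groups were compared with the exact permutation tests described with the results, adjusted by the Benjamini-Hochberg method over all tested genes. The test code was tested on simulated data. Regions were the union of untreated peaks that overlapped or touched.

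The genes named are those with no untreated peak, those with an RNase H peak, those with an unadjusted p of at most 0.05 across groups, those called in 3 of 3 libraries of a group and 0 of 3 of another, the broadest and the least called member of each role, and the 6 with the highest mean percentile; members whose groups do not overlap and Eif4e, Eif4h, Eif2ak3, Eif3e, Eif3h, Eif4ebp2, Eif4ebp3, Eif4enif1, Eif2a, Eif2s3x and Eif5 were named in addition, after their values were seen. The members, their roles and the related genes were chosen with earlier results of these data known. Alternatives changed the window, the q-value threshold, the number of peaks, the rule for overlap, the joining of peaks, the measure and the libraries used. Scripts used numpy 2.4.6 and scipy 1.17.1 under Python 3.11.15, with samtools 1.23.1 for sequences and matplotlib 3.10.9 for figures. Some genes of the lineage list are not reported here by name.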

Additional observations from a re-analysis of the deposited data

How the results depend on the processing

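The 47 members called in 9 of 9 untreated libraries became 28 in a 2 kb window around the start. The 2 members with an unadjusted p of at most 0.05 across the 3 groups became 1 with gene bounds not extended, with peaks up to 1000 bases apart joined or with the number of peaks as the measure, 5 with equal peak numbers in all untreated lists, 4 without peaks that overlap the group's RNase H peaks, and 0 to 11 with 1 library left out. The adjusted RNase H count of 43 became 0 in the 2 kb window, where the unadjusted count was 34, and 0 to 45 with 1 library left out.

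For members whose groups do not overlap, siDDX1 above siScramble went from 0 to 1 without RNase H peaks and 0 to 1 with 1 library left out. siDDX1 below siScramble went from 1 to 0 with unextended bounds or a −log10 q of at least 5, to 2 in the 2 kb window, with equal peak numbers or with the number of peaks, to 3 with joined peaks, to 4 with the percentile, and to 1 to 22 with 1 library left out. siEXOSC3 above siScramble went from 0 to 1 in the 2 kb window, with equal peak numbers or without RNase H peaks, to 5 with the percentile, and to 0 to 5 with 1 library left out. siEXOSC3 below siScramble went from 4 to 2 in the 2 kb window or with the percentile, to 7 with equal peak numbers, to 0 with the number of peaks, and to 4 to 30 with 1 library left out. siEXOSC3 above siDDX1 went from 6 to 2 with unextended bounds, the 2 kb window or a −log10 q of at least 5, to 3 with the number of peaks, and to 6 to 17 with 1 library left out. siEXOSC3 below siDDX1 went from 2 to 7 with equal peak numbers, to 1 with the percentile, to 0 with the number of peaks, and to 2 to 11 with 1 library left out. Fewer libraries make a group easier to part from another. For the other settings the cause was not tested.

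Replicate numbers are shared by the groups, but 3 of the 9 same-numbered pairs deviated together (r above 0.1, range -0.814 to 0.841), so the numbers were not taken to pair the libraries. With the replicate block, 0 members (0.470% of all genes) had a p of at most 0.05 across groups. Within-number differences of 1 sign in 3 of 3 pairs were found in 2 members (2.68% of all genes) for siDDX1 below siScramble, 2 (11.8%) for siEXOSC3 above siScramble, 18 (11.7%) for siEXOSC3 below siScramble and 6 (5.02%) for siEXOSC3 below siDDX1. The other 2 counts stayed within 1.5 times.

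A call has 2 states. With the shallowest calls at 5 to 7 fragments, a summit of 7 fragments such as those of Eif1b (exact Poisson 95% interval 2.81 to 14.4) cannot be told by counting alone from one below the calling level.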
